A study of Mus musculus with 15 samples.

Results

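Protein-coding genes of the 5 complexes of oxidative phosphorylation were followed in mouse embryonic fibroblasts (MEFs) brought to adipocyte differentiation. Members were taken by gene symbol. Nuclear ones were Ndufa, Ndufb, Ndufc, Ndufs or Ndufv with a number next, Sdha to Sdhd, Uqcr, Cyc1, Cox4 to Cox8 and Atp5 genes. Mitochondrial ones were the mt-Nd, mt-Cytb, mt-Co and mt-Atp genes. Nduf symbols with other letters before the number, such as Ndufab1 and the Ndufaf genes, were not taken. Members had to hold at least 10 counts in at least 3 samples. This gave 91 of the 46603 genes in the count files, 78 of them nuclear and 13 mitochondrial. Of 98 protein-coding genes with such symbols, 5 lay under the count minimum (Cox4i2, Cox6b2, Cox7b2, Cox8c and Ndufa4l2), and the brown fat genes Cox8b and Cox7a1 were left out by the rule. By complex, the nuclear members were 35 genes of complex I, 4 of complex II, 9 of complex III, 13 of complex IV and 17 of complex V. The mitochondrial members were 7 genes of complex I, 1 of complex III, 3 of complex IV and 2 of complex V. Ndufa4 was placed with complex IV, and complex V includes Atp5s, coding for factor B.

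All cells were wild-type BALB/c MEFs from 10.5 day old embryos, grown in DMEM with 10% foetal bovine serum. Day 0 (MEFD0) came before treatment. Treated cells (MEFD3plu) received differentiation medium for 3 days at confluency, which is growth medium with 0.5 mM IBMX (a phosphodiesterase inhibitor), 10 μg/mL insulin, 1 μM dexamethasone (a glucocorticoid) and 10 μM rosiglitazone (a PPARG agonist). They were then returned to growth medium until day 5 (MEFD5plu). MEFD3min and MEFD5min stayed in growth medium throughout. Each of the 5 conditions had 3 RNA-Seq samples, numbered 1, 3 and 4, and the labels do not say whether these were separate embryos or cultures, so p-values measure the spread between these samples, which may be technical. MEFs are a mixed primary population, and with bulk RNA, fewer cells of a type and less RNA per cell cannot be told apart.

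Oxidative phosphorylation takes electrons from NADH at complex I and from succinate at complex II, passes them through complex III and cytochrome c to oxygen at complex IV, and pumps protons on the way. Complex V, the ATP synthase, lets the protons flow back and makes ATP. Complex II is built from nuclear genes alone, while the other complexes mix proteins made in the cytosol with proteins made inside the mitochondrion. Fat cells are known to gain mitochondria as they differentiate, and the brown type holds the most.

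The samples held between 24030558 and 37281126 counts. Of 15997 genes tested, all 91 members among them, the fat cell markers set the treated samples apart. The 8 adipocyte markers summed to at most 60.5 CPM (counts scaled to library size) in any untreated sample and to 9552 to 13400 CPM in the treated samples. The 7 proliferation markers summed to 2428 to 2522 CPM in MEFD0, 494 to 617.7 in MEFD3min, 526 to 575 in MEFD3plu, 1790 to 1865 in MEFD5min and 1302 to 1344 in MEFD5plu. The sum of the 9 fibroblast markers was highest in MEFD3min, at 21890 to 33520 CPM, against 10660 to 14420 in all other samples. Single markers differed. From MEFD0 to MEFD3min, 5 of the 9 rose and 3 fell (31.4% and 28.6% of all genes). From MEFD3min to MEFD5min, 3 rose and 6 fell (21.3% and 21.5% of all genes). With treatment, 1 was higher and 7 lower in MEFD3plu/MEFD3min (28.0% and 28.0% of all genes). In MEFD5plu/MEFD5min, 3 were higher and 3 lower (26.3% and 24.2% of all genes). The 7 brown adipocyte markers summed to 2.0 to 2.7 CPM in MEFD0, 5.5 to 8.0 in MEFD3min and 25.7 to 30.2 in MEFD3plu. Their sums were 12.6 to 20.0 CPM in MEFD5min and 71.0 to 82.7 in MEFD5plu. Markers of other cells were scarce: macrophage markers summed to at most 15.1 CPM with 3 of 8 at or under 3 counts in every sample, endothelial markers to 18.7, epithelial markers to 1.46 with 3 of 5 at that floor, and muscle markers to 1.87 with 4 of 6 there. The part of growth, of fibroblast genes or of these cells in the results that follow was not tested.

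Some of the mitochondrial members have identical or near-identical nuclear copies, as the sequences show. In GENCODE M21 (GRCm38), a run of annotated copies lies on the minus strand of chromosome 1 between positions 24611535 and 24616197. Within it Gm28661 matched mt-Co2 at 681 of the 681 positions compared, Gm28437 matched mt-Co3 at 783 of 783, and Gm10925 matched mt-Atp6 at 678 of 678. By contrast, none of the 100-base stretches of mt-Nd1 occurs in the transcript of another gene. The beginnings of both kinds of gene are given for comparison, with the start codon in capitals, at chrM:7013-7112 and chrM:2751-2850 of GRCm38, plus strand.
mt-Co2: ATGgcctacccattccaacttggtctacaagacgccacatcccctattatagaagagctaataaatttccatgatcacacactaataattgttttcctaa
mt-Nd1: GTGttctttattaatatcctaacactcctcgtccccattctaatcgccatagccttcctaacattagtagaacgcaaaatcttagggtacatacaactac
The share of 100-base stretches (the read length) found in another gene's transcript, on either strand, was 99.5% for mt-Co2, 99.9% for mt-Co3, 97.6% for mt-Nd3, 98.5% for mt-Nd4l and 99.5% for mt-Atp6. It was 60.8% for mt-Nd4, 30.8% for mt-Co1, 3.19% for mt-Nd2 and 0 for mt-Nd1, mt-Nd5, mt-Nd6, mt-Cytb and mt-Atp8. Of the 5 genes with over 95% shared, 4 held few counts. Across the 15 samples mt-Co1 held 209002 to 878629 counts, while mt-Co2 held 260 to 1036, mt-Co3 253 to 1444, mt-Nd3 14 to 107 and mt-Nd4l 15 to 93. The gene mt-Atp6 still held 14286 to 39021. How reads with several matching places were counted is not given in the sources used here, so levels of the genes with copies are uncertain. The cause of the low counts was not tested.

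Levels were compared between genes per length, as CPM per kb of exon. Averaged over the conditions, mt-Co1 had 10230 CPM per kb, mt-Cytb 5919, mt-Atp8 5128 and mt-Nd1 4534. The highest nuclear members were Cox8a, a small subunit of complex IV, at 698 CPM per kb, and Atp5b and Atp5a1, the catalytic and regulatory subunits of the ATP synthase head, at 409 and 302. At the low end were Cox6a2, the muscle type form of a complex IV subunit, at 1.46, and Ndufb2 at 2.41. The nuclear members were spread over 19 chromosomes with at most 6 on any of them.

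**Figure D1:**
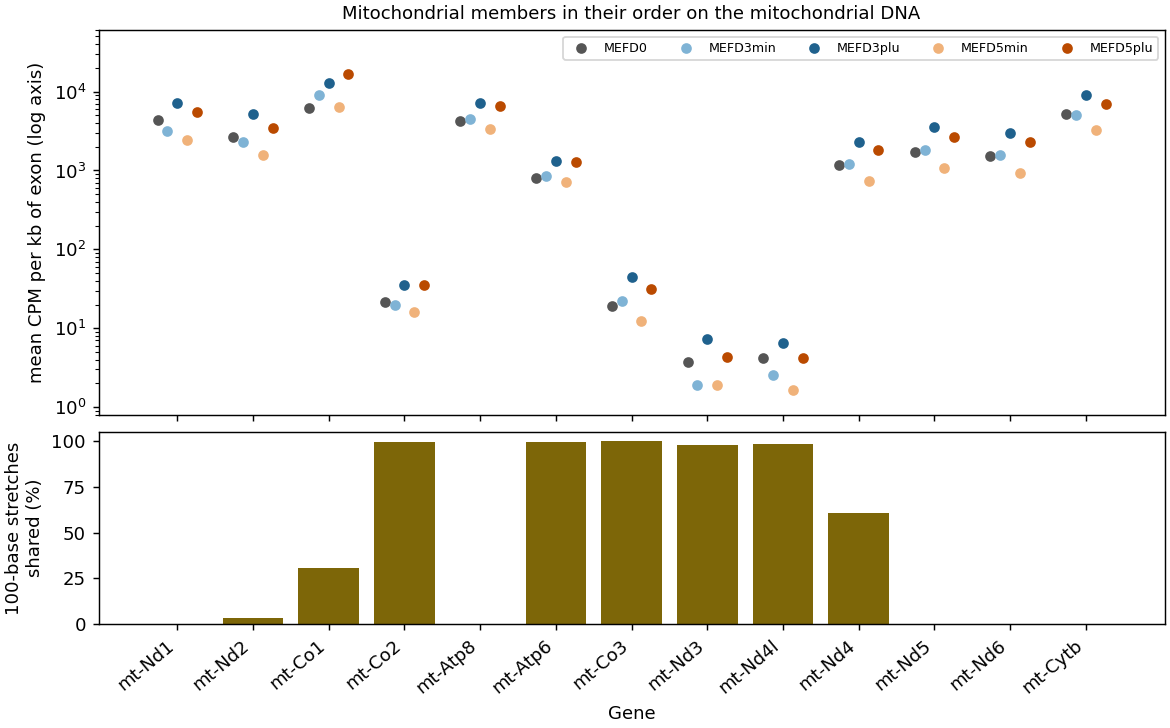
Mean level of each mitochondrial member in CPM per kb of exon (log axis, 1 point per condition) above the percent of its 100-base stretches shared with the transcript of another gene. The genes with 97.6% or more shared lie far below the others, apart from mt-Atp6.

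The data first answer whether differentiation medium changed these genes at day 3. In MEFD3plu/MEFD3min, 65 of 91 members rose and none fell, with a median of 0.52 on the log2 scale (1.44-fold), where the median of all genes was -0.00 (edgeR quasi-likelihood test, adjusted p under 0.05 over all genes). At an unadjusted p under 0.05 still none was lower, and DESeq2 also called 65 higher and 0 lower. Of all genes tested, 28.0% were called higher and 28.0% lower. All 13 mitochondrial members rose, with a median of 0.92 (1.90-fold), and 52 of 78 nuclear members rose, with a median of 0.50. In 54 members the lowest MEFD3plu sample lay above the highest MEFD3min sample, which held for 28.6% of all genes.

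At day 5, 2 days after the medium was withdrawn, nearly all members were called higher. In MEFD5plu/MEFD5min, 87 of 91 rose and none fell, with a median of 0.84 (1.79-fold) against 0.01 for all genes, of which 26.3% were called higher and 24.2% lower. No member was lower at an unadjusted p under 0.05, and DESeq2 called 85 higher and 0 lower. The 13 mitochondrial members rose with a median of 1.18 (2.26-fold), and 74 of 78 nuclear members rose with a median of 0.79. Groups did not overlap in 90 members, compared with 32.5% of all genes, and the exception was Atp5d. The size was modest in both comparisons: 14 members at day 3 and 29 at day 5 passed the threshold with at least a 2-fold rise. Of the 15997 genes tested, 1732 at day 3 and 1511 at day 5 did so.

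**Figure D2:**
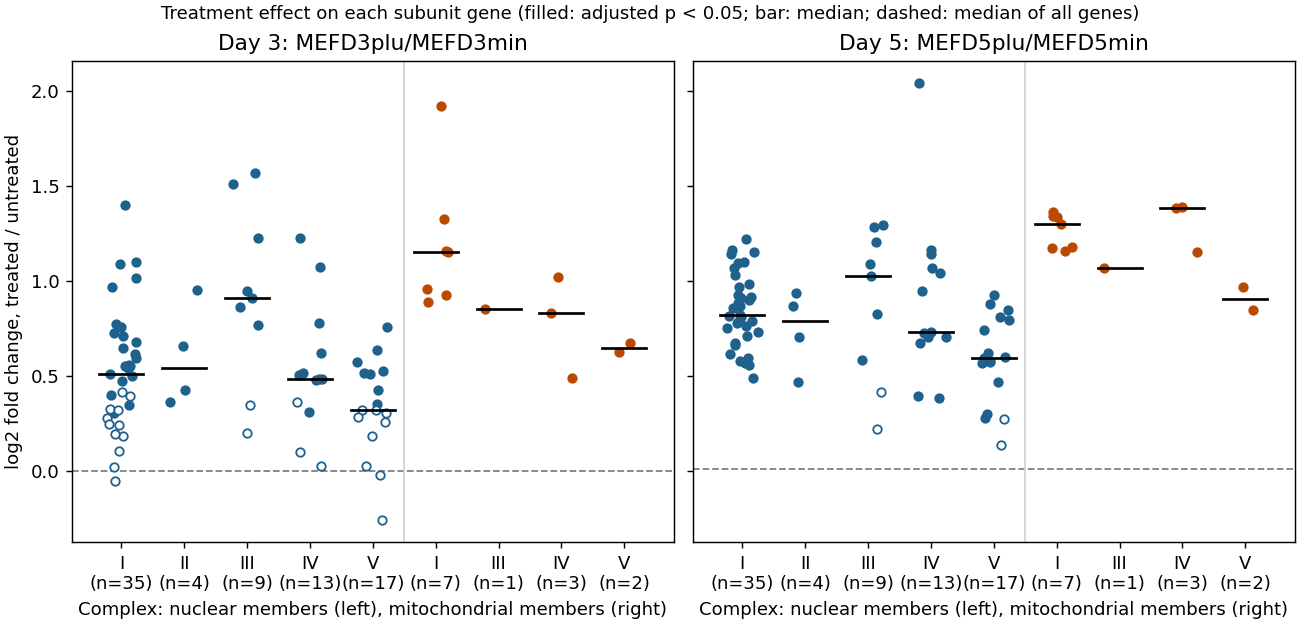
Log2 fold change of treated over untreated cells for each member at day 3 and day 5, by complex and genome. Filled points passed an adjusted p under 0.05, bars are medians and the dashed line is the median of all genes tested. At day 5, 87 points are filled, and the mitochondrial medians lie above the nuclear ones.

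Complex I, the NADH dehydrogenase, had 23 of 35 nuclear members higher at day 3 (median 0.51) and 35 of 35 at day 5 (median 0.82). Of the 7 nuclear core subunits, which carry the flavin and iron-sulphur centres and the quinone site, 6 rose at day 3 and 7 at day 5. The exception at day 3 was Ndufs8. Of the 28 accessory subunits among the members, which surround the core, 17 rose at day 3 and 28 at day 5. The NADH-binding subunit Ndufv1 changed most among the core subunits at day 3. Its CPM were 101, 110 and 110 in MEFD0, 78.8, 76.9 and 81.8 in MEFD3min, 207, 215 and 205 in MEFD3plu, then 81.5, 85.2 and 83.4 in MEFD5min, and 180, 178 and 175 in MEFD5plu. All treated samples lay above all others. The log2 fold change was 1.40 ± 0.07 (SE) at day 3 (adjusted p = 1.1e-11) and 1.09 ± 0.07 at day 5 (adjusted p = 6.4e-10). Ndufs1, the largest core subunit, had mean CPM of 89.3 ± 9.21 (SD, n = 3) in MEFD3min and 191 ± 19.1 in MEFD3plu, and 102 ± 8.05 in MEFD5min and 224 ± 15.5 in MEFD5plu. The log2 fold changes of Ndufs1 were 1.10 and 1.14.

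Of the 11 accessory subunits not called at day 3, Ndufa13, also known as GRIM-19, had the lowest log2 fold change. It had 88.4, 91.7 and 118 CPM in MEFD0, 138, 111 and 176 in MEFD3min, 124, 125 and 160 in MEFD3plu, then 103, 87.0 and 122 in MEFD5min, and 174, 210 and 185 in MEFD5plu. MEFD3min and MEFD3plu overlapped, with a log2 fold change of -0.06 ± 0.16 (adjusted p = 0.79), whereas at day 5 the groups lay apart at 0.86 ± 0.16 (adjusted p = 0.00032). The sign of the day 3 value depended on the samples used, from -0.21 to 0.13 when any 1 was left out. Its exons overlap the antisense gene Tssk6 over 30% of their length, and reads of both cannot be told apart without strand.

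Complex II, succinate dehydrogenase, had all 4 genes higher at both days, with medians of 0.54 and 0.79. The flavoprotein Sdha had 189, 197 and 191 CPM in MEFD3min and 361, 361 and 396 in MEFD3plu, then 197, 191 and 190 in MEFD5min and 350, 353 and 351 in MEFD5plu. The groups lay far apart and differed by 0.95 and 0.87 on the log2 scale. The iron-sulphur subunit Sdhb had 115, 101 and 152 CPM in MEFD3min and 151, 150 and 171 in MEFD3plu, so the day 3 groups overlapped, and it had 126, 119 and 133 in MEFD5min against 221, 265 and 239 in MEFD5plu. Its log2 fold changes were 0.36 and 0.94. The day 3 call was lost without MEFD3min replicate 1 (0.32), MEFD3min replicate 3 (0.24) or MEFD3plu replicate 4 (0.30), and the value was 0.54 without MEFD3min replicate 4.

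Complex III, which hands electrons from ubiquinol to cytochrome c, had 7 of 9 nuclear members higher at each day, with medians of 0.91 and 1.02. They were not the same 7: Uqcrc1 passed at day 3 alone and Uqcrb at day 5 alone. Its catalytic pair, cytochrome c1 (Cyc1) and the Rieske protein (Uqcrfs1), rose at both days. Cyc1 had 98.3, 110 and 109 CPM in MEFD0, 69.4, 73.0 and 76.4 in MEFD3min, 196, 210 and 217 in MEFD3plu, then 85.6, 89.0 and 80.4 in MEFD5min, and 139, 125 and 117 in MEFD5plu. It was lowest in MEFD3min and highest in MEFD3plu, with no overlap between treated and untreated samples at either day. The difference was 1.51 ± 0.08 at day 3 (adjusted p = 8.5e-11) and 0.58 ± 0.08 at day 5 (adjusted p = 1.8e-05). Uqcrfs1 had 101 ± 13.1 CPM in MEFD3min and 195 ± 24.5 in MEFD3plu, and 114 ± 4.10 in MEFD5min and 231 ± 9.16 in MEFD5plu, or 0.95 and 1.03 on the log2 scale.

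Uqcrq, a small subunit next to cytochrome b, had the largest fold change of the 78 nuclear members at day 3. Its CPM were 74.1, 77.0 and 93.2 in MEFD0, 44.6, 40.7 and 57.0 in MEFD3min, 126, 128 and 167 in MEFD3plu, then 51.4, 52.0 and 61.4 in MEFD5min, and 125, 143 and 134 in MEFD5plu. Treated and untreated samples lay apart by 1.57 ± 0.14 at day 3 (adjusted p = 3.6e-08) and 1.28 ± 0.14 at day 5 (adjusted p = 8e-07). Both core proteins rose at day 3, but Uqcrc1 did not pass the test at day 5. It had 149, 161 and 175 CPM in MEFD0, 128, 146 and 135 in MEFD3min, 244, 263 and 237 in MEFD3plu, then 133, 136 and 121 in MEFD5min, and 171, 138 and 145 in MEFD5plu. The day 5 groups lay close to each other without overlap, and the log2 fold change was 0.86 ± 0.09 at day 3 (adjusted p = 4.9e-07) and 0.22 ± 0.09 at day 5 (adjusted p = 0.059). At day 5 it passed the test without MEFD3min replicate 3 (0.22) and without MEFD5plu replicate 3 (0.28). The hinge protein Uqcrh, an acidic subunit that docks cytochrome c, passed at neither day, with values of 0.20 and 0.41, of which the latter passed without MEFD3min replicate 3, MEFD3min replicate 4, MEFD3plu replicate 4 or MEFD5min replicate 4 (0.41 to 0.51).

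Complex IV, cytochrome c oxidase, had 10 of 13 nuclear members higher at day 3 (median 0.48) and 13 of 13 at day 5 (median 0.73). Cox5a, a subunit that faces the matrix, had 68.1, 70.1 and 81.8 CPM in MEFD0, 41.2, 33.7 and 49.95 in MEFD3min, 82.0, 82.0 and 98.5 in MEFD3plu, then 52.1, 58.8 and 56.3 in MEFD5min, and 67.7, 78.5 and 73.0 in MEFD5plu. Treated and untreated samples did not overlap at either day, and MEFD0 lay near MEFD5plu. It changed by 1.07 ± 0.12 at day 3 (adjusted p = 1.1e-06) and 0.39 ± 0.12 at day 5 (adjusted p = 0.013), the latter lost without MEFD5min replicate 1 (0.34), MEFD5min replicate 4 (0.36) or MEFD5plu replicate 3 (0.34).

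Cox6c, a membrane subunit of complex IV, showed the other order. It had 113, 110 and 135 CPM in MEFD0, 208, 165 and 274 in MEFD3min, 209, 202 and 282 in MEFD3plu, then 147, 120 and 169 in MEFD5min, and 259, 328 and 307 in MEFD5plu. The day 3 groups overlapped and the day 5 groups did not, with log2 fold changes of 0.10 ± 0.17 (adjusted p = 0.66) and 1.04 ± 0.17 (adjusted p = 0.0001). The day 3 value ran from -0.07 to 0.31 when any 1 sample was left out. The zinc-binding subunit Cox5b rose by 0.48 and 1.16 and Cox6b1, which lies where complex IV forms dimers, by 0.48 and 1.14. Both day 3 calls were lost without MEFD3min replicate 1 (0.43 and 0.45), MEFD3min replicate 3 (both 0.34) or MEFD3plu replicate 4 (0.35 and 0.31).

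Where complex IV has tissue forms, the widely expressed one held nearly all the counts. Cox4i1 had 428 ± 59.6 CPM in MEFD3min against 607 ± 52.9 in MEFD3plu, and 292 ± 17.4 in MEFD5min against 484 ± 19.7 in MEFD5plu, and rose by 0.50 and 0.73, whereas the lung type Cox4i2 held at most 7 counts in any sample. Cox6a1 rose by 0.78 and 0.94 and was at 161 ± 26.0 CPM in MEFD3min and 275 ± 27.2 in MEFD3plu. Its muscle type partner Cox6a2 rose by 1.22 and 2.04 from 0.609 ± 0.274 to 1.41 ± 0.285 CPM at day 3 and from 0.501 ± 0.138 to 2.11 ± 0.225 at day 5. These are low levels, at 7 to 73 counts per sample. Cox6b2 and Ndufa4l2 held at most 5 counts in any sample. Ndufa4 rose by 0.51 and 0.70, the day 3 call being lost without MEFD3min replicate 1 (0.47), MEFD3min replicate 3 (0.35) or MEFD3plu replicate 4 (0.32). Cox7a2 differed by 0.36 at day 3 (adjusted p = 0.051), passing when MEFD0 replicate 4, MEFD3min replicate 4, MEFD3plu replicate 1 or MEFD3plu replicate 3 was left out (0.36 to 0.52), and rose by 0.73 at day 5. Cox7a2l, a factor that joins complexes III and IV into supercomplexes, differed by 0.02 at day 3 (-0.13 to 0.22 with any 1 sample left out) and rose by 0.38 at day 5, a call lost in 5 of 15 omissions: each MEFD5min replicate (0.33 to 0.42), and MEFD5plu replicates 3 (0.32) and 4 (0.38).

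The brown fat forms left out by the rule were scarce. Cox7a1 had 0.430, 0.304, 0.557, 2.36 and 7.28 mean CPM in MEFD0, MEFD3min, MEFD3plu, MEFD5min and MEFD5plu, and differed by 1.63 on the log2 scale at day 5. Cox8b was at 0 counts in all MEFD0 samples and at 1.17 ± 0.41 CPM in MEFD5plu. Both belong to the list of 7 brown adipocyte markers. Of these, 4 rose and 1 fell at day 3 (28.0% and 28.0% of all genes). At day 5 all 7 rose, where 26.3% of all genes did.

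Complex V had the smallest median change of the nuclear groups, with 8 of 17 members higher at day 3 (median 0.32) and 15 of 17 at day 5 (median 0.59). In the catalytic F1 head, 3 of 5 subunits rose at day 3 (not Atp5c1 and Atp5e) and 4 at day 5 (not Atp5d). Atp5b, the catalytic beta subunit, had 1264, 1188 and 1442 CPM in MEFD3min and 1950, 1982 and 2106 in MEFD3plu, and 1457, 1415 and 1459 in MEFD5min and 2141, 2205 and 2215 in MEFD5plu. The groups lay apart by 0.63 and 0.60. Atp5a1, its alpha partner, rose by 0.57 and 0.30, and the day 5 call was lost (0.14) when samples were scaled by library totals. Atp5d, the delta subunit, was chosen after its values were seen, because it alone overlapped at day 5: it had 181, 181 and 190 CPM in MEFD3min and 243, 284 and 265 in MEFD3plu (0.52), but 171, 185 and 166 in MEFD5min and 212, 188 and 173 in MEFD5plu (0.13).

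Of the other parts of the ATP synthase, the peripheral stalk had 2 of 4 subunits higher at day 3 and 4 at day 5, and the small membrane subunits 1 of 4 and then 4. Factor B was not called at day 3 and rose at day 5. The rotating c-ring is made from 3 genes that code for the same mature protein, and these parted. Atp5g3, the main one by level, had 265, 240 and 307 CPM in MEFD3min and 428, 434 and 509 in MEFD3plu, and 258, 237 and 268 in MEFD5min and 363, 391 and 386 in MEFD5plu (0.76 and 0.58). Atp5g1 had 50.9 ± 8.10 and 64.8 ± 2.74 CPM in MEFD3min and MEFD3plu, and 53.3 ± 3.46 and 64.5 ± 4.44 in MEFD5min and MEFD5plu (0.35 and 0.28). Its day 5 call was lost in 8 of 15 omissions: MEFD0 replicate 3, MEFD3min replicate 1, MEFD3plu replicate 1, each MEFD5min replicate, and MEFD5plu replicates 1 and 3 (0.22 to 0.30).

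Atp5g2 passed at neither day. It had 39.5, 38.3 and 44.5 CPM in MEFD0, 43.7, 30.5 and 52.7 in MEFD3min, 33.5, 32.1 and 40.1 in MEFD3plu, then 42.2, 51.9 and 52.4 in MEFD5min, and 52.8, 61.0 and 63.1 in MEFD5plu. The day 3 groups overlapped and the day 5 groups were next to each other, with -0.26 ± 0.15 (adjusted p = 0.16) and 0.27 ± 0.15 (adjusted p = 0.15). Without MEFD3min replicate 3 both values passed the test, at -0.45 and 0.27. In 34.7% of its 100-base stretches it cannot be told from another gene, mostly the pseudogene Gm10175.

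**Figure D3:**
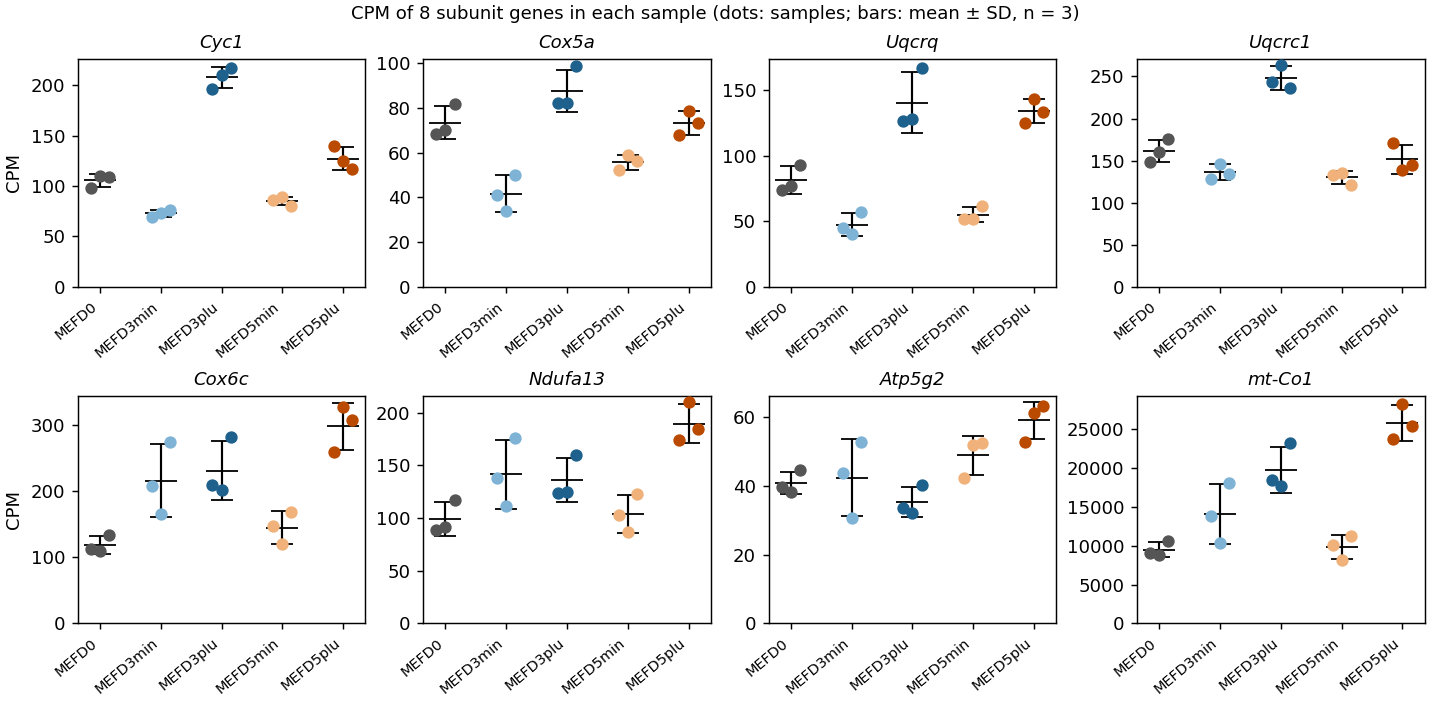
CPM of 8 members in each sample (points) with the mean and SD of each condition (n = 3). Cyc1, Cox5a, Uqcrq and Uqcrc1 have their highest mean in MEFD3plu, and Cox6c, Ndufa13, Atp5g2 and mt-Co1 in MEFD5plu.

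The 13 mitochondrial genes are transcribed as long precursors and cut into single RNAs. Together they took 3.04%, 2.92% and 3.40% of the counts on named genes in MEFD0, 3.18%, 2.37% and 3.98% in MEFD3min, 5.17%, 5.05% and 6.35% in MEFD3plu, then 2.32%, 2.11% and 2.53% in MEFD5min, and 4.65%, 5.49% and 4.83% in MEFD5plu. Every treated sample lay above every untreated one. The 78 nuclear members together took 1.10% ± 0.088 (SD, n = 3) in MEFD0, 0.992% ± 0.13 in MEFD3min, 1.46% ± 0.10 in MEFD3plu, then 1.03% ± 0.056 in MEFD5min and 1.53% ± 0.059 in MEFD5plu. These treated samples too lay above all untreated ones. The ratio of mitochondrial to nuclear counts was 2.83 ± 0.085 in MEFD0, 3.17 ± 0.39 in MEFD3min, 3.77 ± 0.22 in MEFD3plu, then 2.24 ± 0.085 in MEFD5min and 3.27 ± 0.16 in MEFD5plu, lowest in MEFD5min. The shares are a description, with no test.

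**Figure D4:**
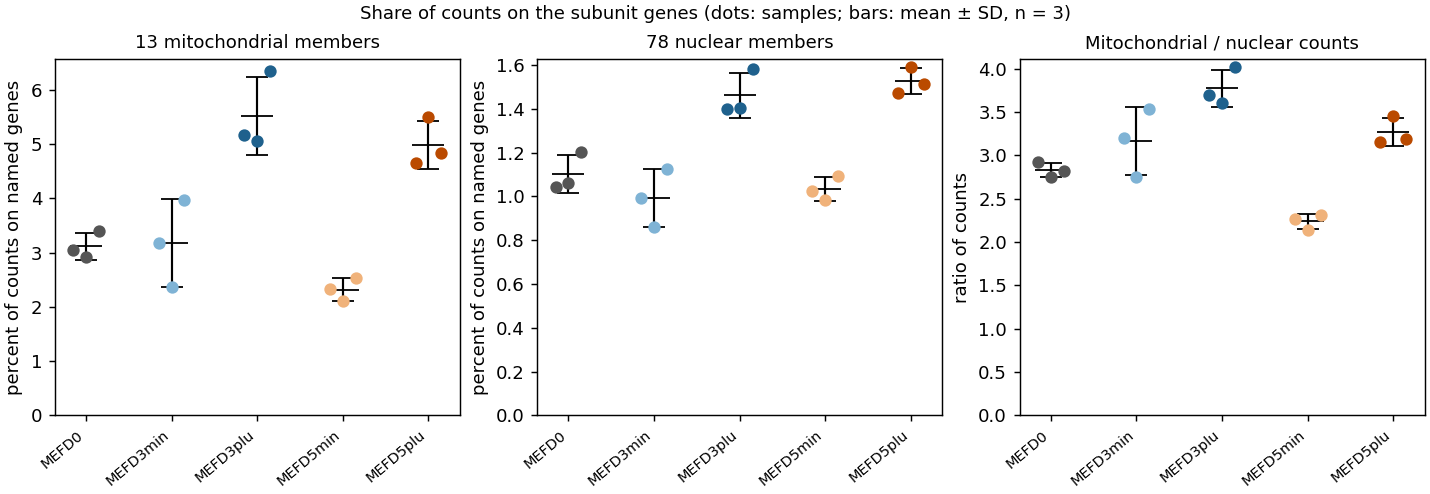
Percent of the counts on named genes that lie on the 13 mitochondrial and on the 78 nuclear members, and the ratio of the counts, in each sample (points; bars are mean and SD, n = 3). All 6 treated samples lie above all 9 untreated ones in both shares.

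By the order of the means, 11 of 13 mitochondrial members were highest in MEFD3plu, and 11 were lowest in MEFD5min. Of the 78 nuclear members, 60 had their highest mean in MEFD5plu and 17 in MEFD3plu. These orders are not a test of timing. Between MEFD3plu and MEFD5plu, 44 of 78 nuclear and 8 of 13 mitochondrial members were not called. Of all genes tested, 25.2% were highest in MEFD3plu and 22.4% in MEFD5plu, and 11.2% were lowest in MEFD5min. Among the complex I genes of the mitochondrial DNA, mt-Nd1 had 2911, 2144 and 4161 CPM in MEFD3min and 6019, 6030 and 8528 in MEFD3plu, and 2241, 2184 and 2541 in MEFD5min and 4745, 5888 and 5136 in MEFD5plu. Treated and untreated samples did not overlap, at 1.16 ± 0.19 (adjusted p = 6.2e-05) and 1.18 ± 0.19 (adjusted p = 7.8e-05). The mt-Nd2, mt-Nd4, mt-Nd5 and mt-Nd6 genes rose by 0.89 to 1.15 at day 3 and 1.15 to 1.34 at day 5. The gene mt-Nd6, the only mitochondrial member on the minus strand, rose by 0.92 and 1.34. Without strand, reads of the opposite strand at this gene cannot be told from its own. How well the mRNA libraries captured it was not tested.

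Cytochrome b (mt-Cytb) rose by 0.85 and 1.07, and the ATP synthase genes mt-Atp6 and mt-Atp8, which overlap on the same strand, by 0.62 and 0.67 at day 3 and 0.84 and 0.97 at day 5. The day 3 call of mt-Atp6 was lost without MEFD3min replicate 3 (0.41) or MEFD3plu replicate 4 (0.45). The genes of the catalytic core of complex IV rose by 0.49 (mt-Co1), 0.83 (mt-Co2) and 1.02 (mt-Co3) at day 3 and by 1.39, 1.15 and 1.38 at day 5. For the scarce mt-Nd3 and mt-Nd4l the values were 1.92 and 1.33 at day 3 and 1.17 and 1.36 at day 5. The mt-Nd4l calls were lost without MEFD3plu replicate 3 (0.92 at day 3) and without MEFD5min replicate 4 (1.2 at day 5). The 6 mitochondrial members with under 5% of their stretches shared rose at both days, with medians of 0.94 and 1.17, and the 5 with over 95% shared rose at both days with medians of 1.02 and 1.17. The annotated nuclear copies themselves were called higher for 6 of 6 at day 3 and 5 of 6 at day 5, and reads from the copies and from the mitochondrial genes cannot be told apart. Of 50 nuclear members with under 5% shared and under 5% antisense overlap, 36 rose at day 3 and 47 at day 5.

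The gene of catalytic subunit 1 of complex IV, mt-Co1, had the smallest day 3 and the largest day 5 value of the 13. It had 9051, 8843 and 10622 CPM in MEFD0, 13833, 10356 and 18081 in MEFD3min, 18500, 17647 and 23175 in MEFD3plu, then 10105, 8135 and 11293 in MEFD5min, and 23724, 28304 and 25354 in MEFD5plu. The day 3 groups overlapped and the day 5 groups lay far apart, with 0.49 ± 0.18 (adjusted p = 0.028) and 1.39 ± 0.18 (adjusted p = 8.2e-06). The day 3 call was lost without MEFD3min replicate 1 (0.48), MEFD3min replicate 3 (0.31) or MEFD3plu replicate 4 (0.36). It made up 32.3% ± 0.67 of all mitochondrial member counts in MEFD0, 43.1% ± 0.61 in MEFD3min, 35.3% ± 0.78 in MEFD3plu, then 44.2% ± 2.63 in MEFD5min and 48.3% ± 0.66 in MEFD5plu. The ribosomal RNAs of the same molecule also shifted against each other: the ratio of mt-Rnr1 to mt-Rnr2 counts was 0.302, 0.632, 0.520, 0.471 and 1.05 in the 5 conditions in this order (SD 0.066, 0.050, 0.066, 0.056 and 0.027). These rRNAs held 0.128%, 0.106%, 0.221%, 0.0760% and 0.335% of the counts on named genes. The paper names an mRNA library kit, and how evenly it captured these rRNAs was not tested. Their ratio and share are therefore uncertain as levels.

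The next question is whether the treatment effect differed between the days, which was tested as an interaction (day 3 effect minus day 5 effect). For 5 members the effect was larger at day 3 and for 15 it was smaller, while 71 were not called, with a median of -0.31 against -0.03 for all genes. Of all genes, 22.6% were called with a larger and 25.8% with a smaller effect at day 3, so neither share of the members exceeded that of all genes. Larger at day 3 were Cyc1 (0.93 ± 0.12, adjusted p = 5.4e-06), Cox5a (0.68 ± 0.17, adjusted p = 0.0037), Uqcrc1 (0.64 ± 0.13, adjusted p = 0.00067), Atp5d (0.39) and Ndufv1 (0.31 ± 0.09, adjusted p = 0.011). The value of Atp5d lost its call without MEFD5plu replicate 4 (0.32). Smaller at day 3 were 8 nuclear genes of complex I, Sdhb, 3 nuclear genes of complex IV, 2 of complex V and mt-Co1. The largest were Cox6c (-0.94 ± 0.24, adjusted p = 0.0042), Ndufa13 (-0.92 ± 0.23, adjusted p = 0.0033) and mt-Co1 (-0.90 ± 0.25, adjusted p = 0.0073). The count of 15 was unstable: it was 42 without MEFD3min replicate 3 and 30 without MEFD3plu replicate 4, and between 7 and 9 without MEFD3min replicate 4 (9), MEFD3plu replicate 1 (8), MEFD3plu replicate 3 (9), MEFD5min replicate 3 (7) or MEFD5plu replicate 3 (8). With the replicate number as a block it was 36.

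**Figure D5:**
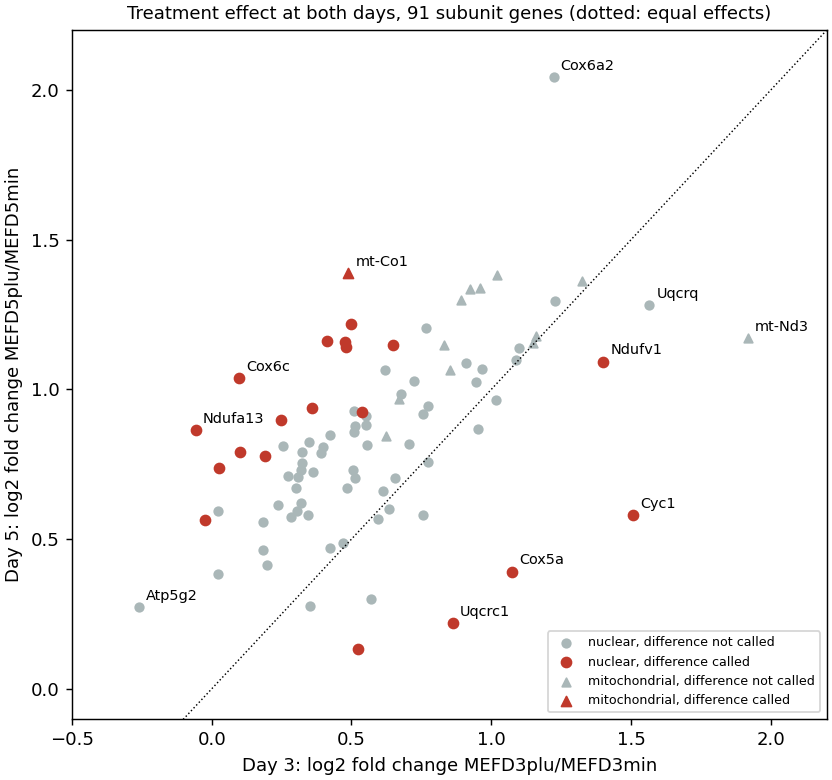
Log2 fold change of each member at day 5 against day 3, with members called in the interaction in red and equal effects on the dotted line. Cyc1, Cox5a and Uqcrc1 lie to the right of the line, and Cox6c, Ndufa13 and mt-Co1 to the left.

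Across the days, 50 nuclear members rose in both comparisons, 2 (Atp5d and Uqcrc1) passed at day 3 alone, 24 at day 5 alone, and 2 (Atp5g2 and Uqcrh) at neither. The 13 mitochondrial members rose in both. Of all genes tested, 28.0% were called higher at day 3 and 26.3% at day 5. The shares of all genes called at both days or at 1 day alone were not computed, so these joint counts have no background. Passing at 1 day alone does not show a difference between the days: of the 24, the interaction called Ndufa1, Ndufa5, Ndufa13, Ndufb2, Ndufs8, Cox6c, Atp5c1 and Atp5e.

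The nuclear members moved together between replicates. Replicate 4 was the highest sample for 72 of 78 nuclear members in MEFD0, 75 in MEFD3min, 73 in MEFD3plu and 67 in MEFD5min, whereas in MEFD5plu replicate 3 was highest for 67. Among all genes, replicate 4 was highest for 33.8% to 39.8% in the first 4 of these conditions, and replicate 3 for 34.6% in MEFD5plu. Replicate 3 was the lowest sample for 72 nuclear members in MEFD3min. The median coefficient of variation of the nuclear members was 21.5% in MEFD3min and 14.5% in MEFD3plu, against 7.79% to 10.9% in the other conditions, and that of all genes was 16.4% in MEFD3min and 8.69% to 10.4% elsewhere. For the mitochondrial members it was 30% in MEFD3min. What set these samples apart was not tested. The count of 65 was 50 without MEFD3min replicate 3 and 81 without MEFD3min replicate 4.

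The untreated cultures show how these genes moved without the medium. From MEFD0 to MEFD3min, 12 members rose and 12 fell, with 67 not called, whereas 31.4% of all genes rose and 28.6% fell. Highest was Ndufa6, an accessory subunit of complex I, with 44.4, 47.2 and 51.5 CPM in MEFD0 and 92.7, 78.5 and 112 in MEFD3min (0.99 ± 0.14, adjusted p = 9.3e-06), followed by Cox6c (0.86) and Uqcrh (0.81). Lowest among the nuclear members were Cox5a (-0.82 ± 0.12, adjusted p = 2.1e-05), Uqcrq (-0.78) and Cyc1 (-0.53). Among the mitochondrial members mt-Co1 rose by 0.57, a call lost without MEFD3min replicate 4 (0.35), and mt-Nd3 fell by 0.97, a call lost without MEFD0 replicate 4 (-0.82) or MEFD3min replicate 1 (-0.75). The number that rose was 20 without MEFD3min replicate 3 and 6 without MEFD3min replicate 4, and the number that fell was 28 without the latter and 24 when scaled to library totals.

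From MEFD3min to MEFD5min, 2 members rose and 13 fell (21.3% and 21.5% of all genes). The mitochondrial members made up 7 of the 13, and their median was -0.58. Lowest were mt-Co3 (-0.85), mt-Nd5 (-0.78) and mt-Nd6 (-0.77). The 2 that rose were Cox5a (0.42) and Cyc1 (0.22). The rise of Cox5a was lost without MEFD3min replicate 3 (0.29) and that of Cyc1 without MEFD3min replicate 1 (0.19) or 3 (0.22), MEFD3plu replicate 3 (0.22), or MEFD5min replicate 1 (0.22) or 3 (0.19). The counts were 0 and 23 without MEFD3min replicate 3, 11 and 7 without MEFD3min replicate 4, and 1 and 7 without MEFD5min replicate 3. Without MEFD3min replicate 1, MEFD3plu replicate 3 or MEFD5min replicate 1, only 1 rose. At a threshold of 0.01 there were 0 and 7.

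In the treated cells from MEFD3plu to MEFD5plu, 26 of 78 nuclear members rose and 8 fell, and 0 of 13 mitochondrial members rose and 5 fell, where 33.8% of all genes rose and 29.2% fell. The share of nuclear members that rose (33.3%) was thus near that of all genes. By edgeR, 1 mitochondrial member was higher at an unadjusted p under 0.05, and DESeq2 called 0. The values ran from -0.71 to 0.74 with a median of 0.27 for the nuclear members, and from -0.73 to 0.38 with a median of -0.38 for the mitochondrial members, and the difference between the genomes was not tested. Atp5g2 rose most (0.74 ± 0.15, adjusted p = 0.00049), with 33.5, 32.1 and 40.1 CPM before and 52.8, 61.0 and 63.1 after, then Ndufs4 (0.67) and Ndufs8 (0.66), which belong to the peripheral arm of complex I. Lowest among well expressed members were Uqcrc1 (-0.71), Cyc1 (-0.71) and mt-Nd2 (-0.57), the last lost without MEFD3plu replicate 4 (-0.38) or MEFD5plu replicate 1 (-0.50). The number that rose, 26 in all, was 12 and 13 without MEFD3plu replicates 1 and 3, 47 without MEFD3plu replicate 4, 16 without MEFD5plu replicate 3 and 46 with the replicate block. The number that fell, 13 in all, was 5 without MEFD3plu replicate 4, 6 without MEFD5plu replicate 1 and 8 without MEFD5plu replicate 4.

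Nuclear subunit genes are known targets of NRF1, of the ETS factor GABPA, of YY1 and of the ERR receptors, so their promoters were searched for the letters of these sites on both strands, from 250 bases before to 50 after the start (RefSeq, GRCm38.p6). An entry was matched for 64 of 78 nuclear members. The NRF1 letters GCATGCGC were in 10 (15.6%) of these and in 3.05% of all 27025 genes with a promoter, or 5.70% of the 10987 of them that were tested. The YY1 letters AAGATGGCG were in 7 (10.9%), against 1.64% of all and 3.33% of tested genes, and in 6 of the 7 they lay within the first 50 transcribed bases. The ETS letters CCGGAAGT were in 5 (7.81%), against 4.31% and 8.64%. The ERR letters TCAAGGTCA were in 2 (3.12%), against 0.466% and 0.319%. GCATGCGC and its reverse complement can overlap in the same place. At least 1 of the motifs was in 23 member promoters (35.9%, against 8.93% of all genes and 16.7% of those tested), and the ETS letters alone were no more frequent in members than in tested genes. Windows of 30 bases are shown for 6 holders with values in the text whose motif lies before the start, with the motif in capitals, on the strand of the gene: Cox6a1 (chr5:115349100-115349129, minus), Ndufa6 (chr15:82354356-82354385, minus), Sdhb (chr4:140961206-140961235, plus) and Atp5g2 (chr15:102671069-102671098, minus) for NRF1, Uqcrh (chr4:116075071-116075100, minus) for ETS, and Atp5g3 (chr2:73911359-73911388, minus) for ERR, the last pair with the motif on the opposite strand.
Cox6a1: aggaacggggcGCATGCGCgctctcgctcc
Ndufa6: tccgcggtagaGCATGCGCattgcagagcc
Sdhb: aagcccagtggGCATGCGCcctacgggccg
Atp5g2: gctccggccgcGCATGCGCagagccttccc
Uqcrh: actacgaggagtatgccgcACTTCCGGcca
Atp5g3: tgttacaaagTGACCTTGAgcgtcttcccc
Members with the letters were found among those that rose and those that did not. Cox6a1, Sdhb and Atp5g3 rose at both days, Ndufa6 at day 5 alone, and Atp5g2 and Uqcrh at neither. Of the 10 with the NRF1 letters 6 rose at day 3 and 8 at day 5, and of the 54 without them 36 and 52 did. A match describes the letters in this window and is not a bound site.

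The genes that serve these complexes were read from lists of known function. For comparison, 28.0% of all genes rose and 28.0% fell at day 3, and 26.3% rose and 24.2% fell at day 5. Of 45 assembly factors tested, 26 rose and 2 fell at day 3, and 32 rose at day 5, with medians of 0.40 and 0.47. The largest rise at day 3 was that of Ndufaf4, a complex I factor, from 13.7 ± 3.0 CPM in MEFD3min to 45.2 ± 4.8 in MEFD3plu (1.73, and 0.42 at day 5, lost without MEFD5min replicate 1 or 4 or MEFD5plu replicate 3 or 4, at 0.28 to 0.43). Atpaf2, which assembles the F1 head, rose from 20.7 ± 1.5 to 59.0 ± 2.7 CPM (1.51, and 0.69 at day 5). Ndufaf3, a partner of Ndufaf4, fell by 0.80 at day 3 and rose by 0.59 at day 5.

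Mobile electron carriers, nucleotide carriers and uncouplers had medians of 1.47 and 1.36 at day 3 and day 5. Of 9 tested, 7 rose and 1 fell at day 3, and 9 rose at day 5. Cytochrome c (Cycs), which links complexes III and IV, had 33.8 ± 10.2 CPM in MEFD3min against 145 ± 25.2 in MEFD3plu at day 3 (2.1 on the log2 scale), and 66.0 ± 3.59 in MEFD5min against 165 ± 19.5 in MEFD5plu at day 5 (1.32). Etfdh, which feeds electrons from fatty acid oxidation to ubiquinone, rose by 1.47 and 1.90, and the adenine nucleotide translocator Slc25a5, which exchanges ATP for ADP, by 1.48 and 0.58. Ucp1, the uncoupling protein of brown fat, fell by 1.37 at day 3 and rose by 1.36 at day 5, from 9.89 ± 3.2 CPM in MEFD5min to 25.6 ± 3.6 in MEFD5plu.

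Of 12 nuclear regulators of mitochondrial biogenesis, 4 rose and 2 fell at day 3, and 5 rose and 5 fell at day 5, with medians of -0.03 and 0.13. At day 3 the number that rose was near the 28.0% of all genes. The coactivator Ppargc1a rose from 0.712 ± 0.31 to 9.41 ± 0.85 CPM at day 3 and from 0.692 ± 0.19 to 4.83 ± 0.19 at day 5 (3.69 and 2.81), and its partner receptor Esrra rose by 0.69 and 0.62. The Nrf1 gene had 30.3 ± 0.94 CPM in MEFD3min and 29.1 ± 0.50 in MEFD3plu, and fell by 0.52 at day 5. Of 30 genes for mitochondrial DNA and RNA handling, 19 rose and 3 fell at day 3 (28.0% and 28.0% of all genes), and 14 rose and 5 fell at day 5 (26.3% and 24.2%), with medians of 0.48 and 0.28. The mitochondrial RNA polymerase Polrmt rose by 0.96 at day 3 and fell by 0.50 at day 5, the latter lost without replicate 3 of MEFD5min (-0.41) or of MEFD5plu (-0.41). Lrpprc, which stabilises mitochondrial mRNAs, rose by 0.92 at day 3 and was at 79.2 ± 7.9 CPM in MEFD5min and 80.5 ± 1.4 in MEFD5plu. Tfam, the packaging protein and transcription factor of mitochondrial DNA, had 49.3 ± 7.8 CPM in MEFD3min and 46.6 ± 5.2 in MEFD3plu, and rose by 0.38 at day 5.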

How the data were processed

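RNA-Seq libraries were made from 15 samples (5 conditions, 3 each). Total RNA was the starting material, and the paper names a kit for mRNA libraries. The authors deposited raw counts per Ensembl gene for each sample, and the submitters' processing notes name TopHat2 2.1.0, HTSeq and DESeq2 and the build GRCm38/mm10. The labels name a library kit without strand marking and the paper a stranded one, and the annotation release and the strand and multi-mapping settings are not given in the sources used here. Of 46603 genes, 46091 were named with GENCODE M21, and 512 were not (0.0471% to 0.0673% of counts per sample). They stayed in the library totals.

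Counts were fitted over all samples with edgeR 4.0.16 (TMM, filterByExpr, quasi-likelihood F test, Benjamini-Hochberg adjustment over 15997 genes, called at an adjusted p under 0.05) in R 4.3.3; SEs are the fold change over the root of F, and CPM are TMM-scaled. The steps were tested on simulated data. Alternatives were DESeq2 1.42.0, other scalings, filters, thresholds, a replicate block and leaving out each sample. Members and lists were chosen with earlier results of these data known. Named are all mitochondrial members, listed paralogues and catalytic subunits, and in each of 6 comparisons the 3 highest and 3 lowest called members among those averaging 3 or more in log2 CPM. Values printed for genes of the lists were picked after they were seen.

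Samples with the same number deviated together at day 3 (r = 0.143, 0.228 and 0.360 between MEFD3min and MEFD3plu over genes), though over all 30 same-numbered pairs r ran from -0.152 to 0.360, with 10 over 0.1. Between MEFD0 and the day 3 conditions r was 0.071 to 0.180. On average, 11 of 15 samples deviated most like the samples of their own number in other conditions. The main fit took no account of the number. No 2 replicates agreed within sampling noise (chi-square per degree of freedom 5.70 to 115). Protein sequences were not used here.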

Additional observations from a re-analysis of the deposited data

Results flagged for a closer look

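The treatment effect differed between day 3 and day 5, by the interaction term of the edgeR fit, for 5 members with a larger effect at day 3 and 15 with a smaller one. Of all genes tested, 22.6% and 25.8% were called so, and the 15 ran from 7 to 42 when any 1 sample was left out. Among the members named by rule, the difference (day 3 effect minus day 5 effect, log2) was 0.93 for Cyc1, 0.68 for Cox5a, 0.64 for Uqcrc1 and 0.31 for Ndufv1. It was -0.94 for Cox6c, -0.92 for Ndufa13, -0.90 for mt-Co1, -0.68 for Cox5b, -0.66 for Cox6b1, -0.65 for Ndufs8 and -0.58 for Sdhb. The call of Cox6b1 was lost without MEFD3min replicate 4 (-0.47), MEFD3plu replicate 1 (-0.57) or 3 (-0.58), MEFD5min replicate 3 (-0.56) or MEFD5plu replicate 3 (-0.61), and with library totals. That of Ndufv1 was lost without the filter on low counts.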

How the results depend on the processing

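For 139 fold changes of 56 genes, 3075 of 3192 alternative values kept direction and call, 81 lost the call, 24 gained it and 12 changed sign. All sign changes were in values not called: leaving out 1 sample at day 3 gave Cox6c -0.0715 to 0.31, Cox7a2l -0.13 to 0.22, Ndufa13 -0.21 to 0.13, Ndufs4 -0.18 to 0.22 and Uqcrh -0.0077 to 0.39, and library totals gave a log2 fold change of Atp5d in MEFD5plu/MEFD5min of -0.0314. The cause was not tested.

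Requiring a 2-fold change left 14 higher at day 3 and 29 at day 5, where 1732 and 1511 of the 15997 genes tested were. It left 0 for either direction of the interaction and of each change over time, where 886 to 2423 of all genes passed. At an adjusted p under 0.01 there were 3 and 3 for the interaction (larger and smaller at day 3), 7 higher in MEFD3min/MEFD0, 0 and 7 (higher and lower) in MEFD5min/MEFD3min, and 13 and 5 in MEFD5plu/MEFD3plu. Library totals shifted the median of all genes by -0.16 at day 5, 0.18 in the interaction and -0.12 in MEFD3min/MEFD0, and the members' medians were then 0.68, -0.12 and -0.13. They gave 9 and 8 for the interaction, 24 lower in MEFD3min/MEFD0, 9 higher in MEFD5min/MEFD3min and 20 lower in MEFD5plu/MEFD3plu. Other scalings shifted it by under 0.05. Without a filter, 1 member was lower at day 3, 39 had a smaller effect at day 3, and 1 was higher and 22 lower in MEFD5min/MEFD3min. With the 2 conditions compared alone these were 1 and 7. Outside the mitochondrial chromosome the nuclear share in MEFD5plu was 1.61%, and without the 10 genes with the most counts it was 1.61% there and 1.09% in MEFD5min. The shorter ETS core CCGGAAG was in 25% of member promoters, against 9.93% of all genes with a promoter and 18.9% of those tested. The shorter ERR core AAGGTCA was in 12.5%, against 5.38% and 3.79%.

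With the replicate number as a block, 76 members were higher at day 3, 36 had a smaller effect at day 3 and 46 were higher in MEFD5plu/MEFD3plu; no other count of members moved by over 1.5 times.

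Leaving out 1 sample gave 50 to 81 higher and 0 to 1 lower at day 3, 84 to 90 higher at day 5, 4 to 7 and 7 to 42 for the interaction, 6 to 20 and 8 to 28 in MEFD3min/MEFD0, 0 to 11 and 7 to 23 in MEFD5min/MEFD3min, and 12 to 47 and 5 to 17 in MEFD5plu/MEFD3plu.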
